A study of Mus musculus with 6 samples.

Results

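The genes described here are 33 named genes of the cell cycle and of DNA replication, picked by symbol from the 32285 genes of the count tables for their known role. The choice was made with earlier results of these data known. All 33 symbols were found. They fall into 10 genes of S phase and DNA replication (Pcna, Mcm2 to Mcm7, Tyms, Rrm1 and Rrm2), 20 genes of G2 phase and mitosis, and 3 genes that are also expressed outside the cycle (Stmn1, Hmgb2 and Tubb5). They were measured by droplet 3′ single-cell RNA sequencing in 6 mouse libraries. In all groups, 10000 cells of SB28, a mouse glioma cell line, had been injected to form brain tumors, and cells were taken at day 18, with the mice perfused after blood was drawn. A group of 2 libraries held neutrophils sorted from blood, another 2 held neutrophils sorted from the tumor by the same gate (CD45+ CD11b+ LY6Ghigh and LY6Clo/-), and the last 2 held CD45+ cells of the tumor, CD45 being the surface protein of all white blood cells. All mice carried a tumor, so there is no tumor-free control. The sources give no strain, age or sex and no number of mice behind a library, so a p-value measures the spread between these libraries, which may be technical.

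During S phase the ring of MCM2 to MCM7 opens the DNA helix, PCNA clamps the polymerases to the DNA, and TYMS and the ribonucleotide reductase subunits RRM1 and RRM2 supply nucleotides. In G2 phase and mitosis the kinase CDK1 with cyclins A and B, the Aurora and PLK1 kinases, kinesins and centromere proteins condense and part the chromosomes. Neutrophils are made from dividing precursors in the bone marrow and leave the cycle before they enter the blood. Mature neutrophils are known to keep PCNA protein in the cytoplasm, where it acts on cell survival and not on replication. Tumor macrophages, microglia and T cells can divide in the tissue.

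Promoters of replication and of mitosis genes are known for different control elements, and the stretches below are shown because they hold the letters that differ between them. E2F factors drive many replication genes, while a cell-cycle homology region (CHR), often beside CCAAT boxes, marks many mitosis genes. Sequences come from RefSeq promoter windows on GRCm38.p6, from 250 bases before to 50 bases after the annotated start, and 28 of the 33 genes matched a window. The letters searched on both strands were TTTGGCGC, TTTCGCGC and TTTCCCGC for E2F, TTTGAA and TTCGAA for the CHR, and CCAAT. Each line runs 5′ to 3′ on the gene's strand, up to 160 bases before the start and outside annotated exons, with every match in capitals, including matches on the other strand.
Mcm5, chr8:75109349-75109508, plus strand: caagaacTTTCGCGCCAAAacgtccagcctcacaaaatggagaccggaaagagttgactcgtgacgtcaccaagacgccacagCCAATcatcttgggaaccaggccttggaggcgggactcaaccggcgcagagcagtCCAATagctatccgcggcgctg
Mcm6, chr1:128359706-128359865, minus strand: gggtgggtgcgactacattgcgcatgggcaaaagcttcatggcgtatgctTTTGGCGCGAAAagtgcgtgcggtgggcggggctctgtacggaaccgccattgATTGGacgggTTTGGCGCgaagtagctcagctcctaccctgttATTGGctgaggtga
Mki67, chr7:135716380-135716539, minus strand: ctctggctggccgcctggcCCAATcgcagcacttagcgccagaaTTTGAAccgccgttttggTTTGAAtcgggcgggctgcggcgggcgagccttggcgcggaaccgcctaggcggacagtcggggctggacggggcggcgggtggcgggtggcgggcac
Top2a, chr11:99024190-99024349, minus strand: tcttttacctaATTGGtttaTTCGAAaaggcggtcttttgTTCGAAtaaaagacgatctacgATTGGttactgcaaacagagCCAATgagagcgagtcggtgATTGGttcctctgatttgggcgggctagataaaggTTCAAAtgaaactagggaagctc
Kif11, chr19:37376222-37376381, plus strand: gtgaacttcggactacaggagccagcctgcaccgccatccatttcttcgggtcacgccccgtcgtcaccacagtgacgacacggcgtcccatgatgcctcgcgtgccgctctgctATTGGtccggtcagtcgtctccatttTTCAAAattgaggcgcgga
Cdk1, chr10:69352939-69353072, minus strand: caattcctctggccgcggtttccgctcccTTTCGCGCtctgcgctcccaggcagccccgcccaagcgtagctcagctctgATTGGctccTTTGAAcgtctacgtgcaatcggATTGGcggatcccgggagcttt

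The E2F letters stood in 4 of 9 matched replication genes (Mcm3, Mcm5, Mcm6 and Mcm7) and in 1 of 17 matched mitosis genes (Cdk1), against 1.84% of all 32851 windows. In the Mcm5 and Mcm6 stretches E2F matches on the 2 strands overlap. The CHR letters stood in 2 of 9 replication genes and in 13 of 17 mitosis genes, against 19.2% of all windows. CCAAT stood in 8 of 9 and 15 of 17, against 37.4% of all windows. Of the 2 matched genes that are also expressed outside the cycle, none held the E2F letters, 1 held the CHR letters and both held CCAAT. A match says only that the letters are there, and no factor binding was measured.

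The libraries held 3121 to 9418 cell barcodes, of which 3115 to 9352 were kept, and 13945799 to 129422458 UMIs (unique molecular identifiers, 1 per captured RNA molecule). A cell was called a neutrophil when S100a8 and S100a9 made up at least 0.5% of its UMIs, which gave 2960 and 4994 cells in blood, 3238 and 5616 in the sorted tumor libraries and 505 and 690 in the CD45+ libraries. The summed level of 10 neutrophil markers in these cells was 169347 to 173987 CPM (UMIs scaled to a common library total) in blood, 88000 to 94202 CPM in sorted tumor cells and 69873 to 82953 CPM in CD45+ cells, with no marker at 0. The other cells of the CD45+ libraries were put into classes by markers of macrophages, microglia, monocytes, dendritic, T, NK and B cells, none of which is a gene described here, and are called macrophage-like and so on. Between 1 CD45+ library (replicate 1) and 1 sorted tumor library (replicate 2), 162 barcodes were shared, 2.45% of the smaller library, and only 2 of them were neutrophils in both; other pairs shared 3 to 35. Few cells can carry a sum: in blood library 2, 3 neutrophils held 22.4% of all mitosis UMIs, and in sorted tumor library 2, 25 neutrophils held 23.8%.

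The first comparison asked how tumor neutrophils differ from blood neutrophils sorted by the same gate. Most replication genes were higher in the tumor, and no tested mitosis gene was. Of the 10 replication genes, 6 rose and 1 fell, with a median log2 fold change of 1.36 against -0.01 over all genes tested. Of the 20 mitosis genes 14 had counts enough to be tested, and 0 rose and 3 fell, with a median of -0.30. Among all genes tested 30.9% were called higher and 29.6% lower, so 7 higher and 5 lower of the 27 tested members is not above that background. A library sum falls alike when fewer cells hold an RNA and when each cell holds less of it, and these cannot be told apart from sums.

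Pcna, the polymerase clamp (chr2:132249162-132253314, mm10), stood at 16.5 and 15.2 CPM in the blood libraries and at 68.4 and 54.1 CPM in the sorted tumor libraries. Both tumor libraries lay above both blood libraries. The log2 fold change was 1.95 (SE 0.15, adjusted p = 2.8e-05), and it stayed between 1.77 and 2.11, with adjusted p up to 5.86e-05, under the 14 alternatives run. Mcm5, a helicase subunit (chr8:75109569-75128439), stood at 0.142 and 0.134 CPM in blood and at 1.51 and 0.890 CPM in the tumor (log2 fold change 3.02, SE 0.57, adjusted p = 0.00251). These levels rest on 2 and 3 UMIs in blood and on 19 and 18 UMIs in the tumor. Mcm4, another subunit of the same ring, went the other way, from 11.1 and 11.0 CPM in blood to 5.79 and 4.84 CPM in the tumor (log2 fold change -1.06, SE 0.19, adjusted p = 0.002). The calls of Pcna and Mcm4 held under all alternatives, and that of Mcm5 in the 12 in which it could be tested.

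The other 4 replication genes that rose had few counts and calls that depend on single libraries. Mcm3 was at 0.213 and 0.223 CPM in blood and at 0.714 and 0.741 CPM in the tumor (log2 fold change 1.71, adjusted p = 0.0174). Tyms, which makes thymidylate, was at 0 and 0.312 CPM in blood and at 0.952 and 0.890 CPM in the tumor (2.25, adjusted p = 0.0311), from 0 and 7 UMIs against 12 and 18. Rrm2, the regulated subunit of ribonucleotide reductase, was at 0.142 and 0.356 CPM against 0.952 and 0.939 CPM (1.78, adjusted p = 0.0175). In none of these did the 2 groups overlap. Mcm7 was at 1.63 and 1.92 CPM in blood and 3.25 and 3.51 CPM in the tumor (0.92, adjusted p = 0.021), and its exons overlap those of Cops6 and Ap4m1 on the other strand. Without blood library 1 the adjusted p was 0.129 for Mcm3, 0.123 for Tyms, 0.15 for Rrm2 and 0.116 for Mcm7. Leaving out that library lowered the number of members called higher to 3, and leaving out tumor library 2 lowered it to 4. With DESeq2 in place of edgeR, 3 members were called higher and 3 lower. Mcm2 (0.497 and 0.624 CPM in blood, 1.75 and 0.692 CPM in the tumor), Mcm6 (0.853 and 1.47 against 2.38 and 0.840 CPM) and Rrm1 (1.99 and 2.09 against 2.70 and 3.11 CPM) did not pass the test.

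Macrophage RNA in the neutrophil sums was higher in the tumor as well. The summed level of 10 macrophage markers was 255 and 360 CPM in blood neutrophils, where 2 and 0 of the 10 were at 0, and 618 and 580 CPM in sorted tumor neutrophils, where none was. The tumor values were 1.22% and 0.994% of those in macrophage-like cells of the same libraries. Pcna in the neutrophils was 86.4% and 45.8% of its macrophage-like level there, and Mcm7 40.4% and 33.8%. For Mcm3 the shares were 5.13% and 2.44%, for Tyms 6.84% and 4.60%, for Rrm2 18.6% and 6.79%, and for Tubb5 8.61% and 8.02%. For Mcm5 they were 103% and 5.15%, from macrophage-like levels of 1.38 and 14.9 CPM, so the libraries differed widely. Among neutrophils without a single macrophage marker UMI (1712 and 2698 cells in blood, 988 and 1725 in the tumor), 3 of 16 members tested were higher and 3 lower. No share over all genes is given for that fit, so these counts cannot be read against a background. Pcna had a log2 fold change of 1.93 in it, and the higher call of Mcm7 was kept, while Mcm3, Mcm5, Tyms and Rrm2 had too few counts to be tested.

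No tested mitosis gene rose in the tumor, and the marker genes of dividing cells did not pass the test with all libraries. Mki67, a chromosome coat protein used to count dividing cells (chr7:135689784-135716361), was at 11.3 and 13.4 CPM in blood and at 8.57 and 9.89 CPM in the tumor (log2 fold change -0.42, SE 0.18, adjusted p = 0.0854). Top2a, the topoisomerase that untangles chromosomes (chr11:98992943-99024189), was at 0.782 and 3.83 CPM in blood and at 2.30 and 3.51 CPM in the tumor (0.28, SE 0.58, adjusted p = 0.704). The 2 groups did not overlap for Mki67 and did overlap for Top2a. Without tumor library 2 Mki67 passed as lower in the tumor (log2 fold change -0.54, adjusted p = 0.0345). Without blood library 2 Top2a passed as higher in the tumor (log2 fold change 1.88, adjusted p = 0.0146; over all alternatives the adjusted p ran from 0.0146 to 0.891). In blood library 2, 70.9% of 86 Top2a UMIs came from cells that also held at least 2 UMIs of other mitosis genes.

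The 3 mitosis genes that fell were Kif11, Aurka and Cenpa. Kif11, the motor that pushes spindle poles apart, was at 1.42 and 2.09 CPM in blood and 0.476 and 0.494 CPM in the tumor (log2 fold change -1.86, SE 0.42, adjusted p = 0.00577). Aurka, a spindle pole kinase, was at 7.89 and 5.93 CPM against 4.84 and 3.90 CPM (-0.66, adjusted p = 0.0427). Cenpa, the histone of the centromere, was at 18.8 and 18.7 CPM against 15.2 and 11.3 CPM (-0.51, adjusted p = 0.044). Kif11 did not pass when mixed cells were kept (log2 fold change 0.21) or without blood library 2 (adjusted p = 0.0783), and Aurka and Cenpa did not pass without blood library 1 (0.244 and 0.0833) or without tumor library 2 (0.112 and 0.143). Leaving out blood library 2 left 3 members called lower. Hjurp, which loads CENPA onto centromeres, was at 37.6 and 36.1 CPM in blood and at 29.5 and 69.2 CPM in the tumor and did not pass the test (0.43, adjusted p = 0.285). The 6 mitosis genes not tested (Ccna2, Ccnb1, Cenpe, Aurkb, Plk1 and Bub1) were at 0 to 1.55 CPM in each sorted library.

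Of the genes that are also used outside the cycle, Tubb5 rose and Hmgb2 fell. Tubb5, a beta tubulin, was at 12.3 and 13.5 CPM in blood and at 25.6 and 21.0 CPM in the tumor (log2 fold change 0.84, SE 0.17, adjusted p = 0.00316). Hmgb2, a chromatin protein, was at 1330 and 1267 CPM in blood and at 594 and 740 CPM in the tumor (-0.96, SE 0.14, adjusted p = 0.000636). Stmn1, which takes microtubules apart, was at 1.49 and 3.39 CPM against 4.52 and 5.09 CPM and did not pass (0.93, adjusted p = 0.0555). The Hmgb2 call held under all alternatives. The Tubb5 call was lost among neutrophils without macrophage marker UMIs (0.51, adjusted p = 0.0801; over all alternatives the adjusted p ran from 7.03e-05 to 0.0801).

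**Figure D1:**
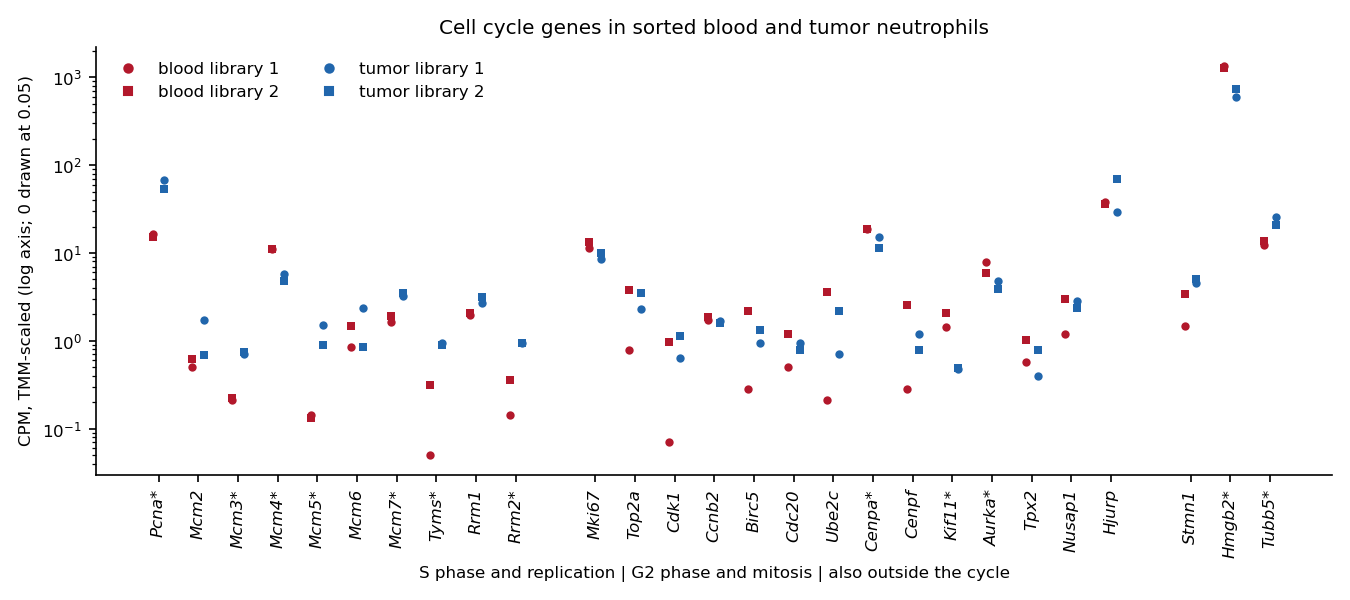
Level of each tested member in the 2 blood and 2 sorted tumor neutrophil libraries, in TMM-scaled CPM on a log axis, with 1 point per library and an asterisk where edgeR's adjusted p was under 0.05. Pcna lies at 15.2 and 16.5 CPM in blood and at 54.1 and 68.4 CPM in the tumor, while the Mki67 points run from 8.57 to 13.4 CPM.

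Genes that control entry into the cycle were read against the same shares over all genes, 30.9% higher and 29.6% lower. The lists are short, and no list was tested against those shares. Among 10 CDK inhibitors and pocket proteins, which hold cells out of S phase, 2 of 9 tested rose and 4 fell. Cdkn1a, the CDK inhibitor p21 and a p53 target, was at 9.52 and 9.09 CPM in blood and at 1542 and 1656 CPM in the tumor (log2 fold change 7.43, SE 0.15, adjusted p = 4.33e-07). It kept a log2 fold change of 7.01 to 7.51 under the alternatives. Cdkn2a, which encodes the CDK4 inhibitor p16, had 2 UMIs in blood and 53 in the tumor, a ratio of 23.7 (95% exact counting interval 6.25 to 201). Cdkn2d, another CDK4 and CDK6 inhibitor, fell from 237 and 163 CPM to 60.7 and 50.4 CPM (-1.85, adjusted p = 0.000119). Rbl2, a pocket protein that represses E2F targets, fell from 36.5 and 40.1 CPM to 16.1 and 14.6 CPM (-1.32, adjusted p = 0.000111).

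Among the G1 cyclins and kinases, 3 of 8 tested rose and 1 fell. Cdk6 was at 15.1 and 13.8 CPM in blood and at 141 and 138 CPM in the tumor (log2 fold change 3.27, SE 0.12, adjusted p = 1.25e-06). Cdk4 was at 0.426 and 0.535 CPM against 7.38 and 10.6 CPM (4.19, SE 0.33, adjusted p = 3e-05). These kinases pair with D-type cyclins to release E2F, and in neutrophils they are also known for a part in the release of extracellular DNA traps. The D-type cyclin Ccnd3 fell from 1613 and 1634 CPM to 357 and 341 CPM (-2.22, adjusted p = 5.06e-06). Of the 9 E2F and mitotic transcription factors tested, 2 rose and 5 fell. E2f2 fell from 42.7 and 36.1 CPM to 6.91 and 6.72 CPM (-2.53, adjusted p = 1.01e-05), E2f8, a repressor of the family, fell by 1.80 on the log2 scale (adjusted p = 0.0037), and E2f5 rose from 0.213 and 0.178 CPM to 1.11 and 1.09 CPM (2.47, adjusted p = 0.00273). Tfdp2, a partner of E2F proteins, rose by 1.23 (adjusted p = 0.013). Exons of Cdkn1a, Cdk4, Cdk6, Ccnd3, Rbl2, E2f5 and E2f8 overlap those of a gene on the other strand, and no source used here says whether counting used the strand.

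Among other genes of replication origins and forks, 11 of 22 tested rose and 3 fell, with a median log2 fold change of 1.06. Mcm10, which helps start the helicase, was at 0.853 and 1.60 CPM in blood and at 18.4 and 14.7 CPM in the tumor (3.68, SE 0.29, adjusted p = 3.2e-05). Tk1, thymidine kinase, fell by 1.39 (adjusted p = 0.0442) and Orc1, of the origin recognition complex, by 1.08 (adjusted p = 0.0233), and these 2 calls were lost under several alternatives. Other mitosis genes counted 2 rises and 5 falls of 22 tested. Kif23, a kinesin of cytokinesis, fell from 135 and 142 CPM to 21.6 and 18.3 CPM (-2.80, adjusted p = 2.82e-06), and Anln, a scaffold of the cleavage furrow, fell by 2.30 (adjusted p = 0.00052). Ckap2l, a spindle protein, rose from 3.06 and 3.39 CPM to 19.3 and 12.8 CPM (2.30, adjusted p = 0.000163), and Lmnb1, a nuclear lamin, rose by 0.78 (adjusted p = 0.00174). Among 7 p53 targets tested 3 rose and 1 fell: Bax, which promotes cell death, rose by 1.44 (adjusted p = 0.000105), Mdm2, which degrades p53, by 1.28 (adjusted p = 0.000165), and Sesn1, a stress response gene, fell by 1.22 (adjusted p = 0.000471).

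**Figure D2:**
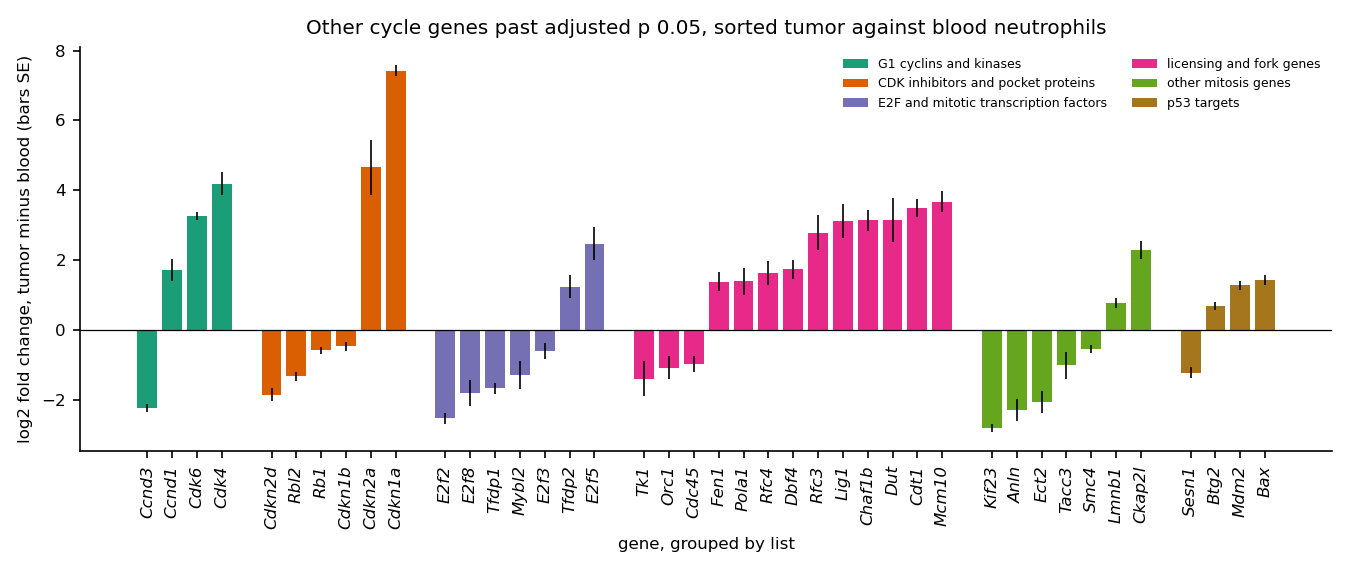
Log2 fold change of sorted tumor against blood neutrophils, with its standard error, for the genes of the further lists that passed edgeR's adjusted p of 0.05, except 1 not reported here, grouped by list. Cdkn1a stands at 7.43, Cdk4 at 4.19 and Mcm10 at 3.68, and Kif23 lies lowest of those named in the text at -2.80.

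The second comparison set sorted tumor neutrophils beside the neutrophils of the CD45+ tumor libraries, which were sorted on CD45 and not put to the LY6G gate. With edgeR, 0 of 19 tested members were called in either direction, and 6 had an unadjusted p under 0.05. Few genes were called at all: 0.00906% of 11041 genes were higher and 0.235% lower in the sorted cells. Pcna was at 43.4 and 62.2 CPM in CD45+ neutrophils and at 66.7 and 52.0 CPM in sorted ones (log2 fold change 0.14, SE 0.24, adjusted p = 0.848). Mki67 was at 7.07 and 5.27 CPM against 8.36 and 9.51 CPM (0.58, SE 0.36, adjusted p = 0.55). Mcm4 was at 9.09 and 7.38 CPM against 5.65 and 4.66 CPM (-0.65, adjusted p = 0.523). Top2a (-0.52), Mcm5 (-0.55), Mcm6 (-0.49) and Mcm7 (-0.20) did not pass either, and Mcm2 and Mcm3 had too few counts to be tested.

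The members with the smallest p were chosen after their values were seen. Stmn1 was at 13.1 and 16.9 CPM in CD45+ neutrophils and at 4.41 and 4.90 CPM in sorted ones (log2 fold change -1.71, SE 0.32, adjusted p = 0.107). Tyms was at 5.05 and 3.69 CPM against 0.929 and 0.856 CPM (-2.23, SE 0.55, adjusted p = 0.177), and Tubb5 at 39.4 and 40.6 CPM against 24.9 and 20.2 CPM (-0.83, adjusted p = 0.188). DESeq2 called Stmn1 lower (adjusted p = 0.0257) and no other member in either direction. Without CD45+ library 1 the lower calls were 2, Stmn1 and Nusap1, and without CD45+ library 2 the higher call was 1, Hmgb2. The CD45+ neutrophils held 1311 and 1669 CPM of macrophage markers against 618 and 580 CPM in sorted cells, and were shallower, with median UMI counts of 1606 and 2511 against 3894.5 and 3908. When neutrophils that also passed another class's marker rule were kept (188 and 224 more CD45+ cells), 22 members were lower in the sorted cells. The part of other cells' RNA in these differences was not tested beyond that.

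The third comparison asked in which white blood cell classes of the tumor the members were high. Each class of the CD45+ libraries with at least 50 cells in each library was set against the mean of the other such classes in 1 fit. B-like cells (202 and 45) were too few and were left out. Statements on any or every other class cover only the classes of the fit. Monocyte-like cells (3883 and 3476 cells) had 27 of the 33 members higher, T-like cells (292 and 147) 20, macrophage-like cells (1982 and 2098) 18, microglia-like cells (547 and 597) 17, NK-like cells (111 and 73) 2, neutrophils 2 and dendritic-like cells (474 and 529) 1. Lower were 23 members in neutrophils, 8 in dendritic-like cells, 3 in microglia-like cells, 3 in NK-like cells, 2 in macrophage-like cells and none in monocyte-like or T-like cells. The 7 contrasts share sums and are not independent of each other. That mean is of log levels, so a class nearly without UMIs of a gene raises the difference of the others. Among others this bears on Cenpf, with no UMI in neutrophils, and on Cdk1 and Ccnb1, with 1 UMI each in NK-like cells. Counts of the contrast without a library term were 18 for monocyte-like, 15 for T-like, 7 for macrophage-like and 10 for microglia-like cells, and leaving out a library leaves no spread to test.

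In monocyte-like cells 9 of the 10 replication genes and 16 of the 20 mitosis genes were higher, where 32.2% of all genes were higher and 19.3% lower. Most cells of this class (3499 and 3211) were led by Fn1 and Chil3, and few (353 and 243) by Ly6c2, Plac8 and Ms4a4c. The few had low cycle RNA, as given below, and whether the class holds macrophages was not tested. Tyms was at 38.5 and 55.1 CPM in these cells, the highest level of it in any class in both libraries (log2 difference 1.62, adjusted p = 5.6e-06). Rrm2 followed with 1.38 (adjusted p = 0.0103), Mcm3 with 1.00 and Rrm1 with 0.92. Pcna, at 71.9 and 117 CPM, was the replication gene that did not pass (0.24, adjusted p = 0.166). Mki67 was at 75.4 and 73.8 CPM (1.23, adjusted p = 2.67e-05) and Top2a at 61.1 and 74.2 CPM (1.01, adjusted p = 0.0119). The centromere proteins Cenpf (2.36) and Cenpe (1.5), the cyclins Ccnb1 (1.75) and Ccna2 (1.51) and the kinase Cdk1 (1.46) were higher too. Stmn1 (0.98) and Tubb5 (0.92) were higher as well.

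T-like cells had 2 of 10 replication and 16 of 20 mitosis genes higher, where 22.2% of all genes were higher and 14.4% lower. Mcm6 was at 66.2 and 49.8 CPM (log2 difference 1.54, adjusted p = 7.17e-06), above every other class in library 1 and in library 2. Rrm1 was 0.87 higher (adjusted p = 0.00514). Top2a was at 148 and 50.6 CPM (1.61, adjusted p = 0.00281) and Mki67 at 91.8 and 51.3 CPM (1.14, adjusted p = 0.00113). Ube2c, which marks cyclin B for breakdown, was at 29.9 and 99.7 CPM (2.15, adjusted p = 4.29e-05). Cenpf (3.02), Ccna2 (1.93), Aurkb (1.77), Cdc20 (1.73) and Kif11 (1.72) were the other leading genes, and Stmn1 (0.76) and Hmgb2 (0.49) were also higher. T-like cells also held 4967 and 4004 CPM of macrophage markers, and the part of macrophage RNA in their levels was not tested.

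Macrophage-like and microglia-like cells had mitosis genes higher and few replication genes. In macrophage-like cells 13 mitosis genes were higher and 1 lower, and 3 replication genes were higher, where 32% of all genes were higher and 19.1% lower. Mki67 was at 69.8 and 51.1 CPM there (log2 difference 0.84, adjusted p = 0.00124), while Top2a did not pass (55.2 and 45.1 CPM, 0.46, adjusted p = 0.26). Cenpf (2.09), Cdk1 (1.28), Ccnb1 (1.27), Cenpe (1.14), Ccnb2 (1.03) and Birc5 (0.99), a survivin subunit of the Aurora B complex, had the largest differences of the mitosis genes. Cenpf, which had no UMI in neutrophils, was at a mean of 18.7 CPM in macrophage-like cells. That is below T-like (33.8), microglia-like (27.1) and monocyte-like cells (21.8 CPM) and above dendritic-like (5.44) and NK-like cells (6.66 CPM). Tyms (1.03), Mcm3 (0.82) and Rrm1 (0.55) were the replication genes. Hjurp was lower (-0.65). Tubb5 (0.87) and Stmn1 (0.77) were higher and Hmgb2 lower (-0.40).

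In microglia-like cells 14 mitosis genes were higher and 1 lower, and 1 replication gene was higher and 1 lower, where 24.8% of all genes were higher and 17.5% lower. Mki67 was at 71.3 and 62.9 CPM (log2 difference 1.05, adjusted p = 0.000464) and Top2a at 54.0 and 63.7 CPM (0.79, adjusted p = 0.0792). Cenpf (2.78), Cenpe (1.64), Cdk1 (1.55), Ccnb1 (1.41), Ccnb2 (1.18) and Aurkb (1.16) led. Mcm3 was higher (0.79) and Mcm4 lower (-0.62), and Cenpa, at 19.4 and 38.4 CPM, was lower (-0.57, adjusted p = 0.0143). Stmn1 (0.86) and Tubb5 (0.46) were higher and Hmgb2 (-0.51) lower.

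Dendritic-like cells had 1 replication gene higher and 6 mitosis genes lower, where 26.5% of all genes were higher and 16.9% lower. The higher gene was Mcm4, at 51.6 and 60.4 CPM (log2 difference 1.26, SE 0.13, adjusted p = 1.16e-06), above every other class in both libraries. Ube2c (-2.09), Plk1 (-1.61), Cdc20 (-1.25), Nusap1 (-1.17), Birc5 (-1.07) and Hjurp (-0.70) were lower, and Mki67, at 42.1 and 17.6 CPM, did not pass (-0.43, adjusted p = 0.162). Stmn1 (-0.81) and Hmgb2 (-0.63) were lower. NK-like cells had Mcm2 (17.1 and 21.3 CPM, 1.36, adjusted p = 0.0422) and Mcm6 (53.1 and 38.8 CPM, 1.14, adjusted p = 0.0067) higher, where 14.2% of all genes were higher and 16.4% lower. Mki67 was at 24.6 and 3.88 CPM in them (-1.59, adjusted p = 0.0282), Tubb5 was lower (-0.86), and Cdk1 rests on 1 UMI (1.17 CPM, exact counting interval 0.0297 to 6.53, against 11.3 CPM over the other classes).

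Neutrophils of the CD45+ libraries had 8 replication and 13 mitosis genes lower, where 27.8% of all genes were higher and 31% lower. Mcm6 was at 4.38 and 2.63 CPM (log2 difference -3.26, adjusted p = 1.27e-05), below every other class in both libraries. Mcm3 (-3.26), Mcm5 (-2.74), Rrm1 (-2.53), Mcm7 (-2.02) and Mcm4 (-1.29) were lower too. Mcm2 had 1 UMI in 2742060 (0.365 CPM, exact counting interval 0.00923 to 2.03, against 14.7 CPM over the other classes). Pcna passed the test in no class of this comparison. In neutrophils, at 62.8 and 103 CPM it did not pass (0.07, adjusted p = 0.802), and its levels in the other classes ran from 59.1 to 117 CPM. These levels depend on the TMM scaling of this fit: the same neutrophils stood at 43.4 and 62.2 CPM in the second comparison.

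Mki67 was at 10.2 and 8.77 CPM in these neutrophils (log2 difference -2.24, adjusted p = 0.000659), and Top2a at 4.38 and 7.89 CPM (-2.91, adjusted p = 0.00851). Cenpf had no UMI in neutrophils, at least 18.6-fold lower than the 20.4 CPM of the other classes, from a floor of 3 counts over both libraries. Tpx2, which activates Aurora A, had 3 UMIs (1.09 CPM, interval 0.226 to 3.20, against 19.7 CPM), and Ccna2 and Aurkb had 1 UMI each. The 1 mitosis gene that was higher was Hjurp, at 37.9 and 123 CPM (1.97, SE 0.29, adjusted p = 2.62e-05), with means of 18.2 to 35.5 CPM in the other classes. Its 2 neutrophil levels differ by more than those of any other class. Hmgb2, at 508 and 888 CPM, was also higher (1.20, adjusted p = 1.62e-06), while Tubb5 (56.9 and 67.5 CPM, -1.93) and Stmn1 (-2.01) were lower.

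**Figure D3:**
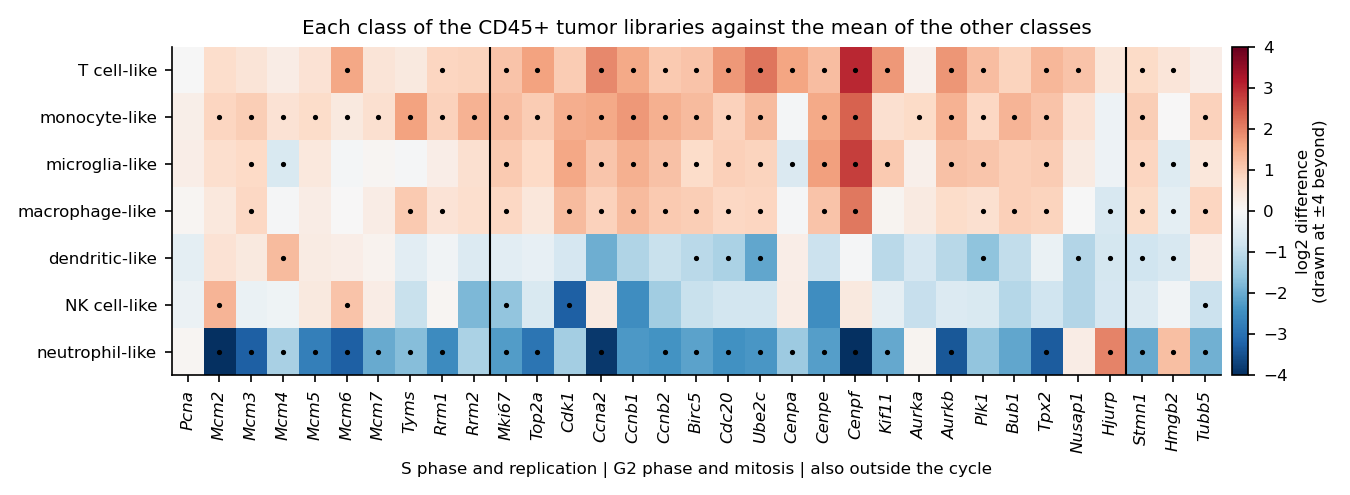
Heat map of the log2 difference of each member (columns) in each class of the CD45+ libraries (rows) from the mean of the other classes, with a dot where edgeR's adjusted p was under 0.05 and values beyond 4 drawn at 4. The neutrophil row is low except for Pcna, Hjurp and Hmgb2 and a few genes without a dot, and the monocyte-like and T-like rows are high in most mitosis columns.

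Genes that set the commitment to divide also differed by class. The D-type cyclins were split: Ccnd1 was at 128 and 128 CPM in dendritic-like and 112 and 113 CPM in microglia-like cells but at 2.92 and 7.89 CPM in neutrophils (log2 difference -2.88). Ccnd2 was at 628 and 599 CPM in dendritic-like cells (2.08) and at 48.8 and 51.6 CPM in microglia-like cells (-2.12). Ccnd3 was at 999 and 763 CPM in NK-like cells (1.65) and at 581 and 572 CPM in neutrophils (0.93). Cdkn1a was highest in neutrophils, at 1548 and 2189 CPM (2.37), with 772 and 850 CPM in monocyte-like cells (0.97) and 123 and 75.7 CPM in NK-like cells (-2.55). Lmnb1 was at 2439 and 2746 CPM in neutrophils (3.45) and at 50.4 to 474 CPM in the other classes. E2f3, an activating E2F factor, was at 85.5 and 75.3 CPM in microglia-like cells (1.91), where Ckap2l was at 160 and 195 CPM (3.24). Mcm10, at 14.6 and 15.8 CPM, was the 1 origin and fork gene higher in neutrophils (2.43), while 15 of 26 were lower. Of the 31 other mitosis genes, 22 were higher in T-like, 20 in monocyte-like, 20 in microglia-like and 15 in macrophage-like cells, and 16 were lower in neutrophils. The shares over all genes were 22.2%, 32.2%, 24.8% and 32% higher in these 4 classes and 31% lower in neutrophils.

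Shares of cells with cycle RNA were counted after each cell was thinned to 1000 UMIs, since the classes differ in depth, and a cell counted when it held at least 2 UMIs of the replication genes or at least 2 of the mitosis genes. Cells under 1000 UMIs were left out. The intervals are exact Clopper-Pearson 95% intervals of counting error only, and no test was run over cells. In the CD45+ libraries 3.78% and 4.05% of cells that were not neutrophils held 2 replication UMIs, and 4.52% and 5.33% held 2 mitosis UMIs; without thinning these were 37.2% and 60.8%, and 23.5% and 36.6%. The mitosis share was 7.05% (4.93% to 9.72%) and 8.10% (6.02% to 10.6%) in microglia-like cells and 5.20% and 5.14% in macrophage-like cells. In T-like cells it was 9.66% (6.51% to 13.7%) and 4.08% (1.51% to 8.67%), in monocyte-like cells 3.88% and 5.41%, and in dendritic-like cells 3.61% and 2.85%. In NK-like cells it was 0.909% and 2.78%. In the few B-like cells (188 and 43 after thinning) it was 0.532% (0.0135% to 2.93%) and 9.30% (2.59% to 22.1%). The replication share was 6.02% and 6.03% in microglia-like and 6.90% and 4.08% in T-like cells. It was 3.61% and 0.949% in dendritic-like cells. Microglia-like cells had shares above monocyte-like cells in both libraries although more members were called higher in monocyte-like cells. Of cells with 2 replication UMIs, 20.1% and 22.9% also held 2 mitosis UMIs.

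In neutrophils these shares were lower. The replication share was 0.177% (0.0574% to 0.412%) and 0.266% (0.137% to 0.464%) in blood and 0.732% (0.464% to 1.10%) and 0.641% (0.447% to 0.890%) in sorted tumor cells. Both tumor shares lay above both blood shares, and the tumor intervals met or overlapped that of blood library 2. The mitosis share was 0.813% and 0.598% for blood, 0.604% and 1.34% (1.05% to 1.68%) for sorted tumor cells, so the libraries of the 2 tissues overlapped. In CD45+ neutrophils the replication share was 1.11% and 0.607% and the mitosis share 1.11% and 2.12%. Without thinning the blood shares were 2.16% and 2.06% for replication and 7.77% and 6.99% for mitosis, and the sorted tumor shares 6.61% and 5.04%, and 4.60% and 6.41%. Single genes weighed on these shares in neutrophils. Unscaled, Pcna was at 64.6 and 46.7 CPM in sorted tumor neutrophils, where the replication genes summed to 83.4 and 60.9 CPM. Hjurp was at 29.5 and 69.2 CPM (TMM-scaled) there, where the mitosis genes summed to 67.6 and 96.5 CPM (unscaled). Shares without these genes were not taken, so the shares do not count dividing cells. RNA set free by other cells can give UMIs in a droplet, and its part in these low shares was not tested.

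**Figure D4:**
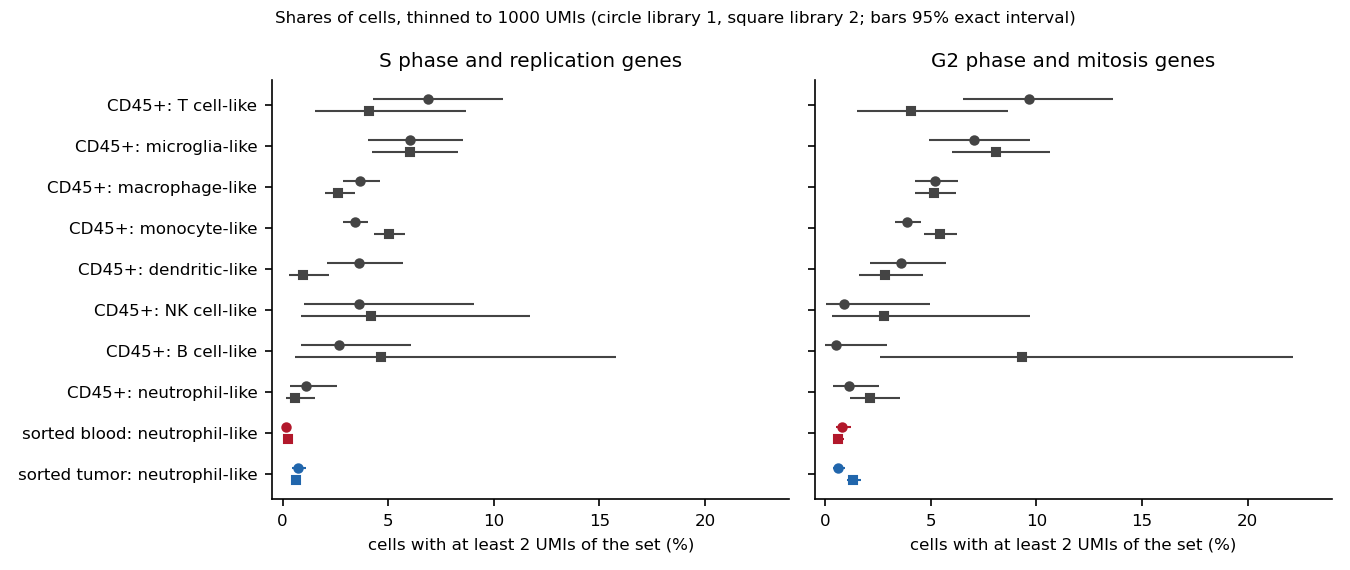
Percent of cells with at least 2 UMIs of the replication genes (S phase) or of the mitosis genes after thinning to 1000 UMIs, for each class and library, with exact 95% intervals. Microglia-like cells lie at 6.02% and 6.03% for S phase and blood neutrophils at 0.177% and 0.266%.

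Within the monocyte-like and T-like classes the cycle RNA was not spread evenly. The splits below were chosen after values were seen and carry no test. Monocyte-like cells led by Ly6c2, Plac8 and Ms4a4c, genes of classical blood monocytes (353 and 243 cells), had Mki67 at 5.81 and 8.71 CPM and a mitosis share of 0.867% (0.179% to 2.51%) and 1.24% (0.257% to 3.60%). Those led by Fn1 and Chil3 (3499 and 3211 cells) had Mki67 at 78.1 and 70.8 CPM and a mitosis share of 4.21% (3.56% to 4.93%) and 5.76% (4.98% to 6.63%). Pcna differed less between them, at 60.98 and 86.6 CPM against 71.2 and 110 CPM. T-like cells with Cd8a or Cd8b1 and no Cd4 UMIs (141 and 67 cells) had Mki67 at 138 and 91.8 CPM, against 38.8 and 5.43 CPM in those with Cd4 alone (55 and 23 cells). Their mitosis shares were 12.2% (7.29% to 18.9%) and 8.96% (3.36% to 18.5%) in the first, and 1.82% (0.046% to 9.72%) and 0% (up to 14.8%) in the second. T-like cells with UMIs of neither kind or of both (96 and 57 cells) had Mki67 at 86.2 and 25.4 CPM. Their mitosis share was 10.4% (5.11% to 18.3%) and 0% (up to 6.27%).

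The members also differed in the company they keep within a cell. Among cells of the CD45+ libraries that were not neutrophils, those with at least 2 UMIs of mitosis genes made up 23.5% of cells and 39.4% of UMIs in library 1 and 36.6% of cells and 53.2% of UMIs in library 2. For a mitosis gene its own UMIs do not count, so its set is smaller, down to 19.0% of cells (33.8% of UMIs) in library 1 and 29.4% (45.5%) in library 2. Such cells held 98.4% and 98.0% of Cenpf UMIs, 96.8% and 97.7% of Birc5 UMIs, 93.0% and 95.4% of Top2a UMIs and 88.1% and 88.2% of Mki67 UMIs. Of the replication genes, Rrm2 had 95.3% and 96.3% there, the Mcm genes 57.8% to 82.7%, and Pcna 51.9% and 64.0%. Hjurp had 48.9% and 58.6%, where its set held 33.8% and 47.0% of all UMIs, and Tubb5 had 57.0% and 67.4%. In neutrophils such cells held few UMIs of any kind: 10.5% and 9.70% of all UMIs in blood, 5.76% and 8.02% in sorted tumor cells and 2.84% and 6.69% in CD45+ cells. They held 8.62% and 7.33% of Pcna UMIs in blood, 4.99% and 7.49% in sorted tumor cells, and 6.98% and 2.54% of 43 and 118 UMIs in CD45+ cells. The values for Hjurp were 4.91% and 4.44% for blood, 3.49% and 2.64% for sorted tumor cells, against 2.96% to 4.88% of all UMIs. For Mki67 they were 6.29% and 21.0% for blood, 0.926% and 4.50% for sorted tumor cells, against 5.09% to 9.24% of all UMIs. These shares grow with depth and are a description.

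**Figure D5:**
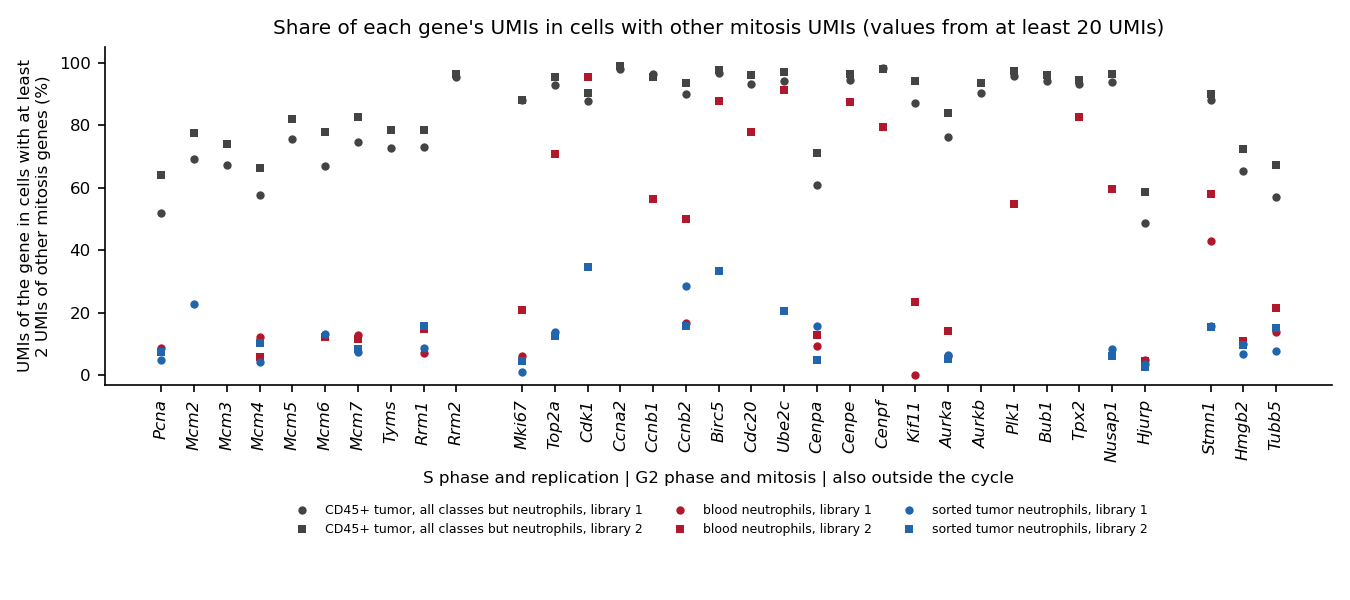
Percent of each gene's UMIs that lie in cells with at least 2 UMIs of other mitosis genes, by library, in blood and sorted tumor neutrophils and in the cells of the CD45+ libraries that were not neutrophils, for values from at least 20 UMIs. Cenpf lies at 98.4% and 98.0% in those CD45+ cells and Pcna at 51.9% and 64.0%, where the cells hold 39.4% and 53.2% of all UMIs. Pcna in the neutrophils drawn lies at up to 8.62%, where such cells hold up to 10.5%.

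Taken as a sum, the few sorted neutrophils with at least 3 mitosis UMIs carried more RNA of some, not all, granule genes made early in neutrophil development. They were 76 and 100 cells in blood and 53 and 166 in the tumor, or 1.64% to 2.96% of neutrophils. Ngp, a secondary granule protein, was at 3550 and 5435 CPM in those of blood, against 316 and 81.4 CPM in cells without a mitosis UMI. In the tumor it was at 3167 and 986 CPM against 36.3 and 52.97 CPM. Camp, the granule peptide cathelicidin, was at 1959 and 5478 CPM against 195 and 23.4 CPM in blood and at 2519 and 590 CPM against 27.4 and 2.32 CPM in the tumor. Elane, a primary granule protease made at the promyelocyte stage, was at 335 CPM in these cells of blood library 1, against 0.114 CPM, and at 0 CPM in those of the other 3 sorted libraries. Ltf and Cebpe were higher in these cells of every sorted library, and others were not. In the tumor Prtn3 was at 3.73 and 2.52 CPM against 6.84 and 2.32 CPM. Chil3 was at 2485 and 1197 CPM there, against 1455 and 1609 CPM. Mpo and Ms4a3 were at 0 CPM in these cells of both tumor libraries. The direction was the same in the 4 sorted libraries for Ngp and Camp. It was not so in the CD45+ libraries, where only 3 and 17 neutrophils had at least 3 mitosis UMIs: Ngp and Camp were at 0 CPM in them, against 227 and 65.6 CPM in cells without a mitosis UMI of library 1 and 11.1 and 0.692 CPM of library 2. Macrophage markers were at 1563 and 3756 CPM in those CD45+ cells, against 1073 and 1490 CPM. The sorted cells with at least 3 mitosis UMIs were deeper, with median UMI counts of 4113 to 5748.5 against 3821.5 to 4145.5. Replication genes were at 54.5 and 56.0 CPM in those of blood against 35.7 and 38.5 CPM, and at 93.1 and 61.8 CPM against 80.9 and 59.9 CPM in the tumor. Cells were picked here by the mitosis genes, so these values describe them and carry no test. They are sums over cells that few cells can set: in blood library 2, 3 cells held 506 of the 852 mitosis UMIs of this set. How many of the picked cells held Ngp or Camp is not given.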

How the data were processed

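Per the submitters' processing notes, the authors ran Cell Ranger 7.1.0 and the build mm10. Their deposited tables hold raw UMI counts, whole numbers with no normalization. No source used here gives the annotation. Libraries were grouped by their labels, 2 per group. Cells were kept from 200 detected genes upward, if no more than 10% of UMIs were mitochondrial. A cell was a neutrophil when S100a8 and S100a9 made up at least 0.5% of UMIs; other classes needed at least 3 UMIs of at least 2 of their markers. The scoring of classes was set after the data were seen. A class score was the cell's marker share of UMIs over the mean share in the top 1% of CD45+ cells. Neutrophils with a score of at least 0.1 for any other class were set aside as mixed (69 to 269 a library). Other cells needed a score of at least 0.1. They were set aside when an unlike class scored at least 0.5 of the best, with macrophages, microglia and monocytes taken as alike. In each library 31 to 270 cells had 0.25% to 0.5% of S100a8 and S100a9. Doublets were not removed in the main analysis; an alternative left out the highest Scrublet scores, up to 0.8% per 1000 cells (78 to 700 cells).

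UMIs were summed per library and class, TMM-scaled, filtered with filterByExpr and tested over all genes with edgeR's quasi-likelihood test (edgeR 4.0.16, R 4.3.3) with Benjamini-Hochberg adjustment; a call is an adjusted p under 0.05. CPM beside a log2 fold change is TMM-scaled within its own fit, so the same cells have other levels in another comparison. Marker sums, levels within splits and levels of cells picked by UMIs are not TMM-scaled. The class comparison was 1 fit over classes with at least 50 cells in each library, with library as a term. Simulated counts were used to test the fit. DESeq2 1.42.0 and the other alternatives are in the closing section; leaving out shared barcodes and leaving out neutrophils with macrophage marker UMIs were added after seeing the data. Cells were thinned with numpy 2.4.6 and intervals made with scipy 1.17.1. Neutrophil sums of replicate libraries differed beyond sampling noise (chi-square over degrees of freedom, 9.88 to 18.6), so each library counts as 1 sample.

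Members and lists were chosen with earlier results of these data known, so no count is independent support. In each comparison the text names, per role group, up to 6 genes each way past the threshold with the largest change, always Mki67, Top2a, Pcna and Mcm2 to Mcm7, and up to 2 each way from each further list; 1 gene of those lists is in the counts but not reported here. Gene coordinates are 1-based from GENCODE on mm10.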

Additional observations from a re-analysis of the deposited data

Results flagged for a closer look

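Some groups of cells outside the comparisons held mitosis RNA above the level of blood neutrophils, where the share of cells with at least 2 mitosis UMIs after thinning was 0.813% and 0.598%. Mixed neutrophils, which also passed the marker rule of another class and were set aside, had a share of 5.22% (exact 95% interval 2.13% to 10.5%) in CD45+ library 1 and 3.14% (1.27% to 6.36%) in CD45+ library 2. In sorted tumor library 1 the few macrophage-like cells that had passed the neutrophil gate had a share of 6.49% (2.14% to 14.5%), and the microglia-like cells one of 8.70% (3.83% to 16.4%). Microglia-like cells of sorted tumor library 2 had a share of 15.3% (9.30% to 23.0%). Others did not stand above blood neutrophils beyond counting error: monocyte-like cells of the sorted tumor libraries had none such among 56 cells, which allows a share of up to 5.36%, and none among 91. Macrophage-like cells of sorted tumor library 2 had 3 of 106 (2.83%, 0.588% to 8.05%), and the mixed neutrophils of the sorted tumor libraries had 2.09% (0.683% to 4.81%) and 2.11% (0.689% to 4.85%).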

How the results depend on the processing

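Between tumor and blood neutrophils, 7 members were higher and 5 lower; leaving out each library in turn gave 3 to 9 higher and 3 to 6 lower, DESeq2 3 and 3, neutrophils with S100a8 and S100a9 at 2% or more 3 lower, and neutrophils without macrophage marker UMIs 3 and 3. Kif11 turned to 0.21 and Tk1 to 0.81 on the log2 scale with mixed neutrophils kept, and, over the fits with 1 library left out, Mcm6 ran from -0.50 (without tumor library 1) to 0.98 and Top2a from -0.41 (without blood library 1), with -0.10 without tumor library 2, to 1.88 (without blood library 2). Between sorted and CD45+ neutrophils (0 and 0), no expression filter gave 1 higher and 2 lower, DESeq2 1 lower, mixed neutrophils kept 1 higher and 22 lower, and leaving out each library 0 to 1 higher and 0 to 2 lower. There Mki67 turned to -1.58 with mixed neutrophils kept, Mcm6 to 0.15 at the 2% threshold, and, with 1 library left out, Pcna ran from -0.045 (without CD45+ library 1), with -0.029 without tumor library 1, to 0.51, Mcm7 from -0.33 to 0.18 and Mcm5 from -1.19 to 6.73 (both high ends without CD45+ library 2, where the Mcm5 level of the remaining CD45+ library is 0, so that 6.73 is no bound). With mixed neutrophils kept Mcm7 stood at -1.09 and Mcm5 at -1.58. In the class comparison, dropping the replicate block gave 7 higher and 0 lower in macrophage-like, 10 and 1 in microglia-like, 3 lower in dendritic-like and 1 lower in NK-like cells; no expression filter gave 13 lower in dendritic-like and 5 lower in NK-like cells, and 1 more marker UMI 1 higher in NK-like cells. The median difference of the replication genes was -0.093 without library 1 and 0.50 without library 2 in dendritic-like cells, 0.18 and -0.19 in NK-like cells, and 0.37 and -0.054 in microglia-like cells, as values with no test. In these the cause was not tested.

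Mean replication and mitosis shares over 2 libraries, at 1000 UMIs, were 0.857% and 1.62% in CD45+ neutrophils, 3.92% and 4.92% in the other CD45+ cells, 0.221% and 0.705% for blood, 0.686% and 0.970% for sorted tumor neutrophils. Without thinning they were 3.21% and 3.23%, 49.0% and 30.1%, 2.11% and 7.38%, and 5.82% and 5.51%. At 500 UMIs they were 0.217% and 0.804%, 1.35% and 2.66%, 0.0369% and 0.201%, and 0.226% for replication in sorted tumor cells. With at least 3 UMIs they were 0.262% and 0.676%, 1.18% and 3.04%, 0% and 0.108%, and 0.159% and 0.381%. Fewer UMIs leave fewer cells that can count.

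Labels give the libraries numbers, and deviations of same-numbered libraries correlated at 0.102 between tumor and blood and 0.119 between sorted and CD45+ neutrophils, over only 2 pairs, so the number was not taken as a pairing. With the number as a replicate block, 8 members were higher and 5 lower in tumor against blood, and 1 higher (Hmgb2) and 1 lower (Stmn1) in sorted against CD45+ neutrophils. Over the main counts and shares, 167 alternatives kept a count within 1.5 times or a share within its spread. Those that did not are printed above (23 shares, 11 counts that grew and 15 that shrank). A kept count can hold other genes: DESeq2 called 12 members lower in dendritic-like cells, with 6 of the 8 of the main fit among them. Single genes, class medians and the other shares are not in the 167. There 2331 alternatives stayed the same, 91 moved, 135 lost a call and 14 turned sign. Counts under the alternatives have no share over all genes beside them. In blood neutrophils many replication genes had under 10 UMIs in a library, and differences of that size are little more than counting error there.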
